A study of Rattus norvegicus with 12 samples.

Results

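Wnt ligands, their receptors and co-receptors, secreted antagonists, signal transducers and target genes were examined in the mammary gland of weanling rats. The genes were chosen by name, 44 in all, and were looked up by rat gene ID in a table of read counts for 16511 genes. Of these, 38 were matched and had at least 1 count. Wnt2, Fzd3, Fzd7, Sfrp1, Tcf7 and Nkd1 were not analysed here. The named genes comprised 10 ligands, 2 genes of ligand processing and secretion, 8 Frizzled receptors, 2 co-receptors, 4 R-spondins and R-spondin receptors, 6 secreted antagonists, 6 cytoplasmic transducers, 4 TCF/LEF factors and 2 feedback targets.

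RNA was sequenced from whole mammary glands of Rattus norvegicus on postnatal day 21, 6 from offspring of dams on a high fat butter diet (HFB, libraries 1 to 6) and 6 from offspring of dams on a control diet (CTL, libraries 7 to 11 and 14). The animals are labelled as exposed before birth. The sources differ on when the exposure ended, and this was not settled here. The paper on the series describes a single offspring per litter. If this holds for these libraries, the spread between them is a spread between litters.

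Wnt proteins are lipid-modified ligands that bind Frizzled receptors together with Lrp5 or Lrp6. In the canonical branch, receptor binding stops the Axin and Apc complex from marking beta-catenin for breakdown, and beta-catenin then acts with TCF/LEF factors on target genes such as Axin2. In the mammary gland Wnt signalling takes part in placode formation, ductal branching and the upkeep of basal progenitor cells, and Wnt5a is known as a ligand that acts largely outside the beta-catenin branch.

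The HFB libraries held 2320267 to 2760871 counts (median 2660268) and the CTL libraries 2403464 to 2944680 (median 2537563.5). A level of 3 counts, taken as the smallest that can be detected, corresponded to between 0.949 and 1.30 CPM on library sizes scaled by the TMM method. Of the 38 genes, 26 passed the filter on low counts and were tested in a fit of 9382 genes. The other 12 were Wnt2b, Wnt4, Wnt6, Wnt7b, Wnt9a, Wnt10b, Fzd5, Fzd8, Rspo1, Rspo3, Lgr5 and Lef1. Values below are in CPM on the same sizes, and levels are compared between libraries for 1 gene at a time, because no transcript lengths were used.

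Libraries HFB 5, HFB 6 and CTL 14 stood apart from the others before any diet comparison. On the leading principal component of all tested genes, which held 57.5% of the variance, HFB 6 lay at 102, CTL 14 at 68.5 and HFB 5 at 28.5, whereas the other 9 libraries lay between -31.5 and -16.6. Cell type markers differed among these libraries too. The 9 T cell markers summed to 906 CPM in HFB 6 and 845 CPM in CTL 14, to 326 CPM in HFB 1 and 147 CPM in HFB 2. In the other libraries they summed to at most 64.8 CPM. Lck was the most abundant over all libraries, although Cd3d had 547 counts in HFB 6 against 497 of Lck. A marker said below to lead its list is likewise the most abundant over all libraries. Cd4 and Cd28 did not follow the sum, with 12 counts of Cd4 in HFB 6, the lowest of all libraries, and 0 counts of Cd28 in HFB 6 and 2 in CTL 14. The 5 B cell markers found summed to 369 CPM in HFB 6 and 397 CPM in CTL 14 and to at most 57.6 CPM elsewhere. The 8 adipocyte markers, led by Fabp4, summed to 20241 CPM in HFB 6 and 16167 CPM in CTL 14, against 34098 to 42633 CPM in the other libraries. The 7 fibroblast markers gave 21329 CPM in HFB 6 and 20221 CPM in CTL 14, against 29570 to 46554 CPM elsewhere. Col3a1 led them over all libraries, but Col1a1 was the most abundant in HFB 5, HFB 6 and CTL 14. In HFB 5 the sums were 25.1 CPM of T cell markers and 38788 CPM of adipocyte markers. Of the adipocyte markers, Lpl had 3494 counts in HFB 5, 744 in HFB 6 and 1761 in CTL 14, against 8068 to 14614 in the others, and Plin1 was also lowest in these libraries. Retn did not follow in HFB 5 and HFB 6, with 3740 and 3748 counts, whereas CTL 14 had 2095, against 2092 to 4014 in the others. Fabp4 was highest of all libraries in HFB 5, at 65289 counts. In bulk tissue fewer cells of a type and less RNA per cell cannot be told apart, and the part of cell composition in the values of the Wnt genes was not tested.

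The labelled tissue was checked against its markers. Luminal epithelial markers, led by Krt8, summed to between 119 CPM in HFB 1 and 644 CPM in HFB 6, with Cldn3 at 0 counts in each library. CTL 14 at 635 CPM and HFB 5 at 616 CPM came next, so the libraries that stood apart held the highest sums, followed by CTL 7 at 524 CPM. Epcam and Cdh1 did not follow the sums. Both were highest in CTL 7, with 306 and 203 counts, against 128 and 95 in HFB 6. The 5 basal and myoepithelial markers found, led by Mylk, summed to between 108 CPM in HFB 1 and 285 CPM in CTL 14, although Oxtr among them had 2 counts in HFB 6 and 6 in CTL 14 against 33 to 197 elsewhere. The skeletal muscle markers, led by Acta1, ran from 181 CPM in CTL 10 to 6931 CPM in HFB 6. The 4 endothelial markers found, led by Pecam1, lay between 130 CPM in HFB 5 and 393 CPM in CTL 14, with HFB 6 at 368 CPM and at most 215 CPM in the others. Among them Pecam1 had 639 counts in HFB 6 and 682 in CTL 14, against 74 to 154 elsewhere, whereas Cdh5 had 7 counts in HFB 6, the lowest of all libraries, and 14 in HFB 5. Macrophage markers, led by Csf1r, lay between 214 CPM in CTL 14 and 421 CPM in CTL 11. Marco had 100 counts in HFB 6 and 89 in CTL 14, against 0 to 6 elsewhere. In the same libraries Mrc1 was lowest (107 and 91 counts, against 200 to 389), as was Cd163 (57 and 27, against 77 to 160).

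The question put to the Wnt genes was whether they differed between the maternal diets. None of the 26 tested genes had an adjusted p under 0.05 in edgeR's quasi-likelihood test (adjusted p = 0.999 for each), and neither did any of the 9382 genes (0.00%). The count was also 0 with DESeq2 and with limma-voom. At an unadjusted p under 0.05 there was 1 Wnt gene, Dkk3, against 220 of all genes (2.34%). Dkk3 was lower in HFB, as were 98 of the 220 (1.04% of all genes). For none of the 26 genes were the diet groups free of overlap, against 10 of all genes (0.107%). The fitted difference was below 0 for 21 of the 26 Wnt genes, with a median log2 fold change of -0.24 for HFB over CTL, while 4688 of all 9382 genes (49.97%) were below 0. The median over the Wnt genes was -0.13 without HFB 6 and -0.14 without HFB 5, HFB 6 and CTL 14. These genes vary together across libraries, as described below, so the 21 are not separate observations.

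Leaving out HFB 5, HFB 6 and CTL 14, an alternative chosen after the data were seen, left 4 HFB and 5 CTL libraries. In that fit 6 of 27 tested Wnt genes had an unadjusted p under 0.05 and were lower in HFB, against 257 of 9480 genes (2.71%), and none was higher. These were Lgr4, Tcf7l1, Dkk3, Wls, Lrp5 and Fzd1. With all 12 libraries, limma-voom with quality weights for the libraries called the same 6 genes at this level, against 344 of 9382 genes lower in HFB (3.67%). Quality weights give less weight to libraries that deviate more, and both fits used the same data, so the lists are not separate observations. No gene passed the adjusted threshold in either fit, and the smallest adjusted p of the 6 was 0.876 without these libraries and 0.707 with limma-voom. In the 4 HFB and 5 CTL libraries left, the mean log2 CPM of the fibroblast markers also split by diet. It was 10.61 to 10.85 in HFB and 10.90 to 11.12 in CTL. Pearson's r of the 6 genes with it over these libraries ran from 0.708 (Fzd1) to 0.927 (Wls). The part of cell composition in the 6 differences was not tested.

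**Figure D1:**
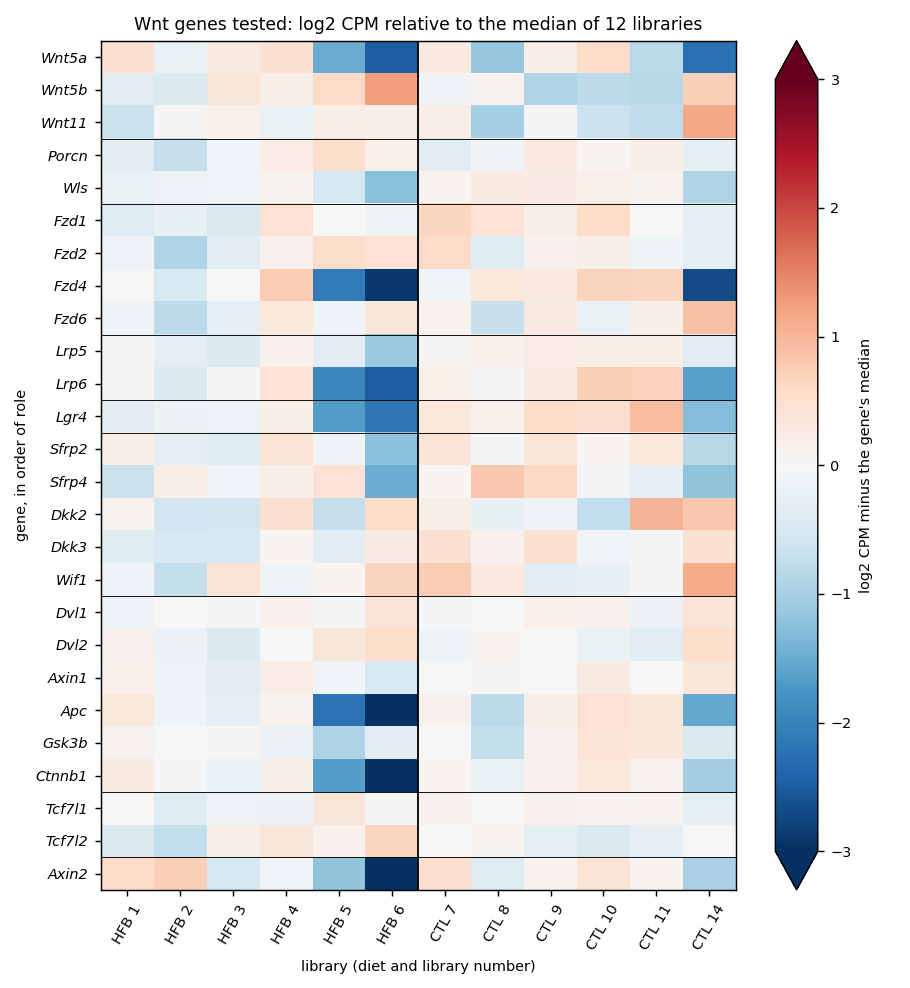
Log2 CPM of the 26 tested Wnt genes (rows, in order of role) in the 12 libraries (columns), each relative to the gene's median over the libraries, with blue below and red above the median. HFB 5, HFB 6 and CTL 14 hold the darkest blue cells, in Fzd4, Lrp6, Apc, Ctnnb1, Wnt5a and Axin2, while Wnt5b is red in these libraries.

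The spread across libraries was read against that of all genes. The median SD of log2 CPM over the 12 libraries was 0.49 for the 26 Wnt genes and 0.40 for all 9382 genes, and 17 of the 26 lay above the latter. This SD includes counting error. The median biological coefficient of variation of the edgeR fit, which allows for that error, was 0.33 and 0.29, with 16 of the 26 above the latter. HFB 6 held the lowest value for 12 of the 26 Wnt genes, against 2363 of all genes (25.2%). CTL 14 held the lowest value for 0 of the 26, against 1208 of all genes (12.9%). The highest value was in HFB 6 for 4 of the 26 (Wnt5b, Dvl1, Dvl2 and Tcf7l2; 23.1% of all genes) and in CTL 14 for 5 (Wnt11, Fzd6, Dkk3, Wif1 and Axin1; 15.2% of all genes).

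Of the ligands, Wnt5a, Wnt5b and Wnt11 were tested. Wnt5b, a close relative of Wnt5a, was at 6.85 CPM in the lowest, 11.8 in the median and 23.3 in the highest HFB library, and at 4.78, 7.03 and 16.2 CPM in the CTL libraries. HFB 6 was highest, followed by CTL 14 and HFB 5, and the groups overlapped. The log2 fold change of 0.58 (standard error 0.37) was the largest upward difference among the 26 genes, and 5 of 6 HFB libraries were above the CTL median. It was 0.89 without CTL 14, 0.32 without HFB 6 and 0.46 without the libraries that stood apart. With the luminal score as a covariate it was 0.81, with an unadjusted p under 0.05.

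Wnt5a went the other way in the same libraries. Its level was 0.802 CPM in the lowest, 8.30 in the median and 11.1 in the highest HFB library, and 1.06, 6.67 and 11.9 CPM in the CTL libraries. The lowest values were 2 counts in HFB 6, 3 counts in CTL 14 and 6 counts in HFB 5, and the groups overlapped over almost their whole range. The log2 fold change was 0.09 (standard error 0.60), and its sign changed in 6 of the 12 fits that left out a library each. Without the libraries that stood apart it was 0.34 (standard error 0.35). The SD of Wnt5a over the libraries was above that of 93.9% of the genes tested.

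Wnt11, a ligand of the non-canonical branch, ranged from 2.77 CPM in CTL 8 to 14.8 CPM in CTL 14, and differed by -0.04 (standard error 0.39) on the log2 scale. Its difference was 0.26 (standard error 0.33) without the libraries that stood apart and 0.26 (standard error 0.31) with limma-voom. The untested ligands were present at few counts. Wnt9a had between 5 and 11 counts in a library, Wnt10b between 0 and 12, Wnt4 between 0 and 8, Wnt2b between 0 and 5 and Wnt7b between 0 and 2. Wnt6 had 28 counts in HFB 6 and 16 in CTL 14 and at most 9 in the others. Fitted without the filter, Wnt2b was lower in HFB at an unadjusted p under 0.05, with at most 1 count in each HFB library and 1 to 5 in the CTL libraries, against 146 of 13557 genes lower in HFB at this level (1.08%). The adjusted p of Wnt2b in that edgeR fit was 0.998. With DESeq2 none of the untested ligands, Wnt2b included, reached an unadjusted p under 0.05, and without the filter no other did.

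Wls carries lipid-modified Wnt proteins to the cell surface. It was at 60.9 CPM in the lowest, 128 in the median and 156 in the highest HFB library, and at 77.8, 159 and 175 CPM in the CTL libraries. HFB 6, CTL 14 and HFB 5 were the lowest libraries, and each HFB library was below the CTL median, although the groups overlapped. The log2 fold change was -0.33 (standard error 0.23) with all libraries and -0.24 (standard error 0.10) without these libraries. Porcn, the acyltransferase that attaches the lipid, lay between 9.85 CPM in HFB 2 and 24.0 CPM in HFB 5 and differed by 0.04 (standard error 0.22) on the log2 scale, and by -0.21 (standard error 0.21) without these libraries.

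Of the Frizzled receptors, Fzd1, Fzd2, Fzd4 and Fzd6 were tested. Fzd1 was at 25.3 CPM in the lowest, 30.4 in the median and 47.3 in the highest HFB library, and at 28.2, 43.3 and 54.7 CPM in the CTL libraries. HFB 4 was the only HFB library above the CTL median, CTL 14 was the lowest CTL library, and the groups overlapped. On the log2 scale the difference was -0.38 (standard error 0.20) with all libraries, and ran from -0.52 without HFB 4 to -0.29 without CTL 7. It was -0.49 (standard error 0.20) without the libraries that stood apart and -0.32 with the luminal score as a covariate.

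Fzd4, a receptor for canonical Wnts and for norrin, had the largest SD of the 26 genes, above that of 97.2% of all genes tested. Its values were 3.21, 24.9 and 49.8 CPM in the lowest, median and highest HFB library and 3.87, 36.0 and 46.4 CPM in the CTL libraries. HFB 6, CTL 14 and HFB 5, at 6.19 CPM, were far below the remaining libraries, of which the lowest was HFB 2 at 21.0 CPM. The fold change of Fzd4 was -0.49 (standard error 0.60) on the log2 scale and -0.24 (standard error 0.23) without these libraries.

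Fzd2 stayed within 5.57, 11.02 and 16.2 CPM in the lowest, median and highest HFB library and within 8.30, 11.1 and 16.8 CPM in the CTL libraries. The groups overlapped over the whole CTL range but for its highest library, CTL 7. Its log2 fold change of -0.03 (standard error 0.27) changed sign in 5 of the 12 fits that left out a library. It was -0.40 (standard error 0.27) without the libraries that stood apart and -0.44 (standard error 0.26) with limma-voom. Fzd6 lay between 9.85 CPM in HFB 2 and 32.8 CPM in CTL 14. Fzd8 had between 6 and 20 counts and Fzd5 between 0 and 3 counts in a library.

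The co-receptors are single-pass proteins that bind Wnt with Frizzled. Lrp5 was at 30.1 CPM in the lowest, 53.3 in the median and 72.0 in the highest HFB library, and at 52.8, 73.8 and 77.4 CPM in the CTL libraries. Each HFB library was below the CTL median, and the groups overlapped because CTL 14 and CTL 7 were below HFB 4. HFB was lower by a log2 fold change of -0.39 (standard error 0.18), which ran from -0.49 without HFB 4 to -0.26 without HFB 6. It was -0.29 (standard error 0.11) without the libraries that stood apart.

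Lrp6 showed a wider range, with 1.60, 10.5 and 17.2 CPM in the lowest, median and highest HFB library and 3.52, 14.6 and 21.1 CPM in the CTL libraries. The groups overlapped, and HFB 6 had 4 counts, HFB 5 had 7 and CTL 14 had 10, while the remaining libraries had 21 to 57. The log2 fold change of -0.64 (standard error 0.52) became -0.37 (standard error 0.23) without these libraries.

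R-spondins raise the amount of Frizzled and Lrp at the cell surface through Lgr4, Lgr5 and their partners. Lgr4 was at 4.81 CPM in the lowest, 19.96 in the median and 27.2 in the highest HFB library, and at 9.16, 31.7 and 46.4 CPM in the CTL libraries. HFB 6, HFB 5 and CTL 14 were the lowest libraries. Among the remaining libraries only HFB 4, at 27.2 CPM, was above a CTL library, CTL 8 at 26.5 CPM. With a log2 fold change of -0.84 (standard error 0.43), Lgr4 had the largest difference of the 26 genes in either direction. It was -0.62 (standard error 0.17) without the libraries that stood apart, -1.04 without HFB 4 and -0.65 without HFB 6.

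The ligands and the other receptor of this branch did not pass the filter. Rspo1 had between 1 and 21 counts in a library, with 15 in HFB 6 and the highest in CTL 14. Rspo3 had at most 3 counts and Lgr5 at most 4, and neither reached an unadjusted p under 0.05 in the edgeR fit without a filter or with DESeq2.

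**Figure D2:**
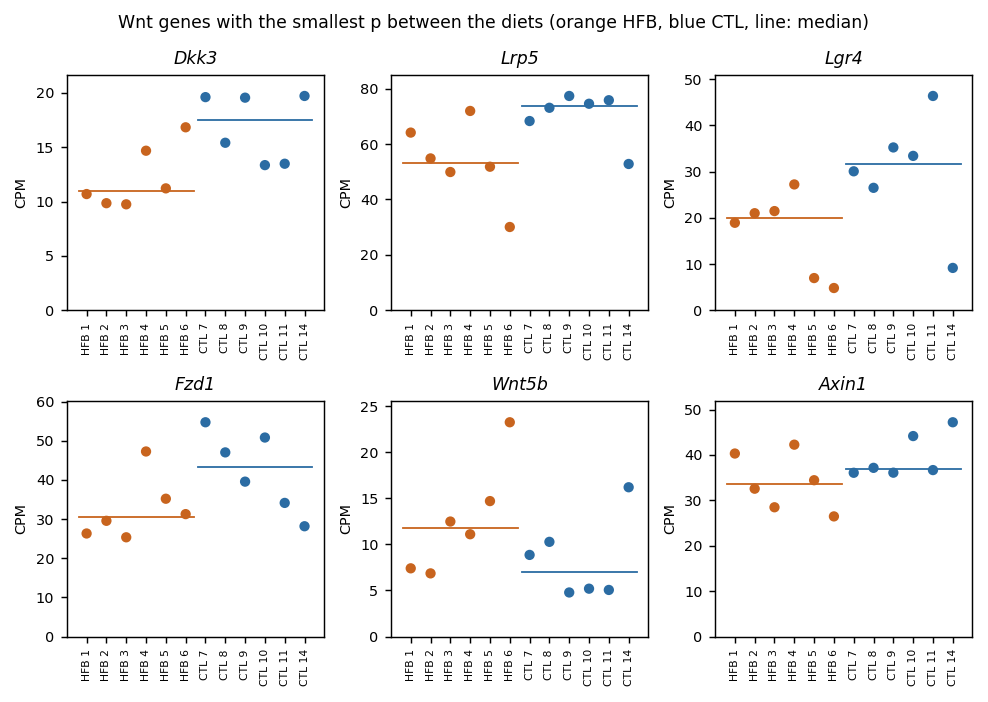
CPM of the 6 Wnt genes with the smallest p in the diet comparison, by library, with HFB libraries in orange, CTL libraries in blue and a line at each group's median. For Dkk3, Lrp5 and Lgr4 each HFB library lies below the CTL median, and the groups overlap in each of the panels.

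Secreted antagonists bind Wnt proteins directly, as the Sfrp proteins and Wif1 do, or act on Lrp co-receptors, as Dkk2 can. Dkk3, a divergent member of the Dickkopf family, was at 9.75 CPM in the lowest, 10.96 in the median and 16.8 in the highest HFB library, and at 13.4, 17.5 and 19.7 CPM in the CTL libraries. Each HFB library was below the CTL median, and HFB 4 and HFB 6 were above the lowest CTL libraries. Its log2 fold change was -0.47 (standard error 0.20), with -0.58 when HFB 6 and -0.40 when CTL 14 was left out. An unadjusted p under 0.05 was kept in 5 of the 12 fits without a single library, those without HFB 4, HFB 6, CTL 8, CTL 10 or CTL 11. It was -0.53 (standard error 0.21) without the libraries that stood apart, so the difference in Dkk3 was as large in the remaining libraries. With the luminal score as a covariate it was -0.39, and the unadjusted p was no longer under 0.05.

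Sfrp4 was at 32.5, 95.4 and 126 CPM in the lowest, median and highest HFB library and at 39.4, 92.6 and 163 CPM in the CTL libraries. HFB 6 and CTL 14 were the lowest libraries, HFB 5 was the highest HFB library, and the groups overlapped. Sfrp4 differed by -0.24 (standard error 0.35) on the log2 scale, by -0.05 without CTL 8 and by -0.40 without CTL 14. Sfrp2 had its lowest values in the same pair of libraries, 28.9 CPM in HFB 6 and 38.4 CPM in CTL 14, with a highest value of 90.6 CPM in HFB 4.

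Dkk2 was at 3.48, 5.24 and 9.22 CPM in the lowest, median and highest HFB library and at 3.34, 6.31 and 13.1 CPM in the CTL libraries. CTL 11 and CTL 14 were highest, HFB 6 and HFB 4 followed, and the groups overlapped. For Dkk2 the log2 fold change was -0.34 (standard error 0.38), -0.13 without CTL 11 and -0.51 without HFB 6. Wif1 ranged from 2.14 CPM in HFB 2 to 9.51 CPM in CTL 14 and was not tested in the fit without the libraries that stood apart.

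Among the transducers, Ctnnb1 encodes beta-catenin itself. Its level was 9.22 CPM in the lowest, 136 in the median and 179 in the highest HFB library, and 71.8, 156 and 184 CPM in the CTL libraries. HFB 6 had 23 counts of Ctnnb1, HFB 5 had 121 and CTL 14 had 204, while the remaining libraries had 324 to 496. The diets overlapped closely in those remaining libraries, with a log2 fold change of -0.02 (standard error 0.13), against -0.35 (standard error 0.49) over all libraries. The SD over the libraries was above that of 95.9% of the genes tested.

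Apc, a scaffold of the complex that marks beta-catenin for breakdown, followed the same libraries. It was at 1.60, 18.0 and 25.9 CPM in the lowest, median and highest HFB library and at 6.69, 23.3 and 28.2 CPM in the CTL libraries. The lowest values were in HFB 6, HFB 5 and CTL 14, in this order, as for Ctnnb1, and the groups overlapped. Its fold change of -0.41 (standard error 0.54) became -0.10 (standard error 0.23) without them.

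The other transducers varied less. Axin1, the limiting scaffold of that complex, was at 26.5, 33.5 and 42.3 CPM in the lowest, median and highest HFB library and at 36.1, 36.9 and 47.2 CPM in the CTL libraries. HFB 6 was lowest, CTL 14 was highest and HFB 5 lay between them at 34.4 CPM, and the groups overlapped. Axin1 differed by -0.21 (standard error 0.15) on the log2 scale and by -0.08 (standard error 0.14) without them. Dvl1 and Dvl2, which pass the signal on from Frizzled, differed by -0.02 (standard error 0.13) and 0.09 (standard error 0.21), and Gsk3b, the kinase of the complex, by -0.19 (standard error 0.26). The SD of Dvl1 was above that of 5.31% of the genes tested.

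**Figure D3:**
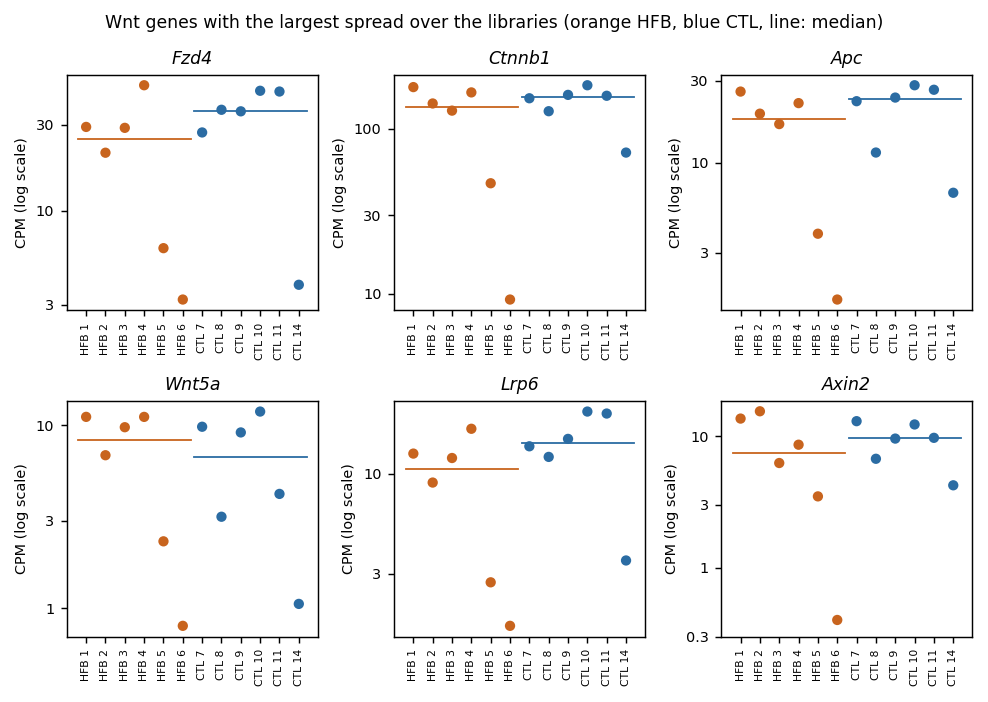
CPM on a log scale of the 6 Wnt genes with the largest SD of log2 CPM, by library, with HFB libraries in orange, CTL libraries in blue and a line at each group's median. HFB 5, HFB 6 and CTL 14 are the lowest libraries in each panel, with Ctnnb1 at 46.8, 9.22 and 71.8 CPM in them.

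TCF/LEF factors bind the DNA of target genes and recruit beta-catenin there. Tcf7l2 was at 24.0, 45.4 and 64.5 CPM in the lowest, median and highest HFB library and at 30.1, 37.3 and 43.1 CPM in the CTL libraries. The HFB libraries spanned the whole CTL range, with HFB 2 lowest and HFB 6 highest. Between the diets Tcf7l2 differed by 0.24 (standard error 0.22) on the log2 scale, by 0.10 without HFB 6, by 0.08 (standard error 0.21) without the libraries that stood apart and by 0.04 with limma-voom. Tcf7l1 lay between 48.0 CPM in HFB 2 and 80.1 CPM in HFB 5, and its log2 fold change moved from -0.08 (standard error 0.13) to -0.26 (standard error 0.10) when the libraries that stood apart were left out.

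Lef1 did not pass the filter, and its values were picked out after they had been seen. It had 44 counts in HFB 1, 27 in CTL 14, 17 in HFB 2, 12 in HFB 6 and 10 in CTL 10, and at most 4 in any other library. HFB 1, HFB 2, HFB 6 and CTL 14 were also the libraries with the highest sums of T cell markers, although HFB 1 had more Lef1 and fewer T cell marker counts than HFB 6. The part of T cells in the Lef1 counts was not tested.

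Axin2 is a direct target of the canonical branch and feeds back on it. It was at 0.401 CPM in the lowest, 7.42 in the median and 15.4 in the highest HFB library, and at 4.23, 9.63 and 13.0 CPM in the CTL libraries. HFB 6 had 1 count, HFB 5 had 9 and CTL 14 had 12, and HFB 2 and HFB 1 were highest, so the groups overlapped. Its log2 fold change was -0.22 (standard error 0.53), 0.03 without HFB 6 and 0.09 (standard error 0.29) without the libraries that stood apart. Ctnnb1 and the feedback gene Axin2 were both lowest in the same libraries, and neither was called between the diets.

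**Figure D4:**
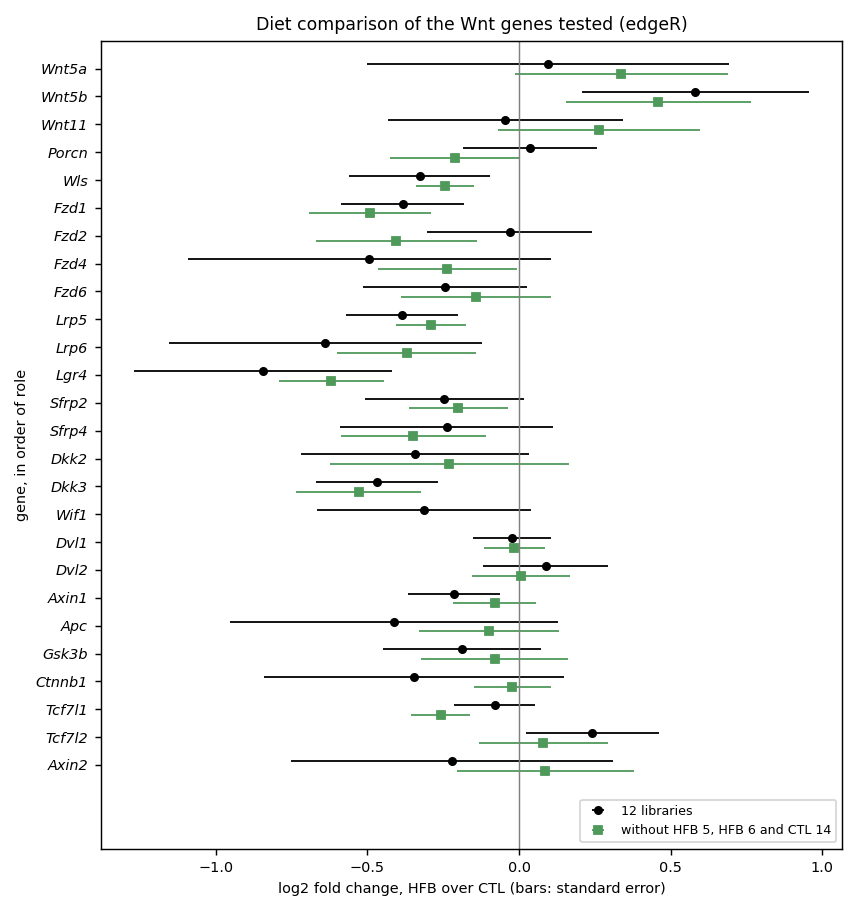
Log2 fold change of HFB over CTL with its standard error for the 26 tested Wnt genes, with all 12 libraries (black) and without HFB 5, HFB 6 and CTL 14 (green; Wif1 was not tested there). Lgr4 is lowest at -0.84 and -0.62, and the bars of Fzd4, Lrp6, Apc, Ctnnb1 and Axin2 shrink when those libraries are left out.

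The Wnt genes were next compared with the cell type scores, each the mean log2 CPM of a marker list. Over 7 lists and 26 genes, 182 correlations were computed. An adjusted permutation p under 0.05 for Pearson's r was found for 7 of the 182 (3.85%), against 3350 of 65631 over all genes (5.10%). No value of Spearman's rho among the 182 passed. The 7 were 4 of 26 with the adipocyte score (17.96% over all genes) and 3 of 26 with the fibroblast score (6.44% over all genes). In each of these the score was lowest in HFB 6 and CTL 14, and none of the 7 passed without that pair of libraries. When each list was read without its own pair of libraries farthest from the median score, none of the 182 passed, against 29 of the 65631. The 7 calls were therefore lost without HFB 6 and CTL 14, while the size of r over the other libraries differed between genes, as given next.

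Wls had the largest r with both scores. With the adipocyte score r was 0.917 (permutation p = 0.00034, adjusted p = 0.0287, rho = 0.755, permutation p = 0.00619, adjusted p = 0.204, n = 12). Without HFB 6 and CTL 14 r was 0.701, and it was 0.943 within HFB and 0.997 within CTL, where each diet holds a library of that pair. Over the 9 libraries that did not stand apart r was 0.398. With the fibroblast score r was 0.875 (permutation p = 0.00203, adjusted p = 0.0460, rho = 0.818, permutation p = 0.0020, adjusted p = 0.144, n = 12), 0.522 without the same pair and 0.927 over the 9 libraries. Among those 9, each HFB library had a lower fibroblast score than each CTL library. Values of r with this score over the 9 libraries therefore include the difference between the diets.

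**Figure D5:**
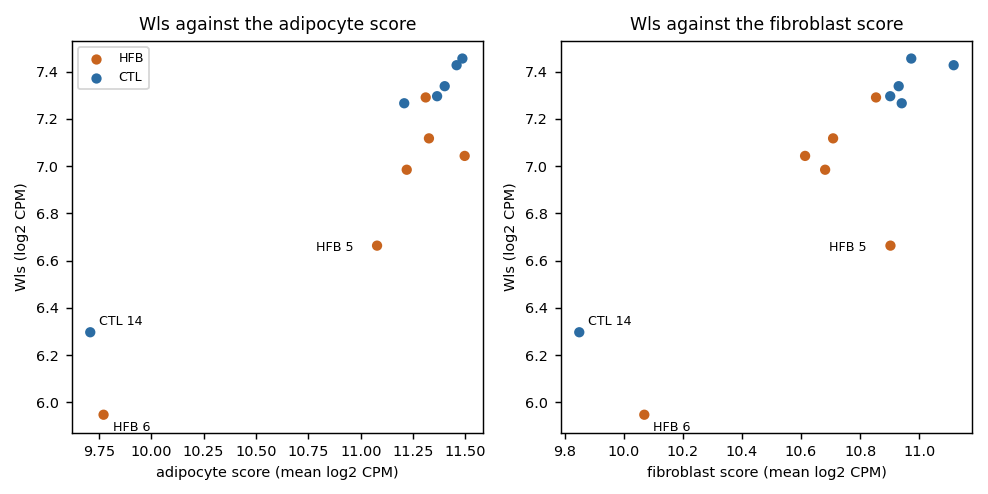
Log2 CPM of Wls against the adipocyte score (left) and the fibroblast score (right), both in log2 CPM, with HFB libraries in orange and CTL libraries in blue. HFB 6 and CTL 14 lie at the low end of both scores and of Wls, and the remaining libraries fill a narrow range.

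The other 5 were smaller in size. Fzd4 followed the adipocyte score (r = 0.871), Sfrp2 and Sfrp4 the fibroblast score (r = 0.864 and 0.866), and Dvl2 and Wnt5b ran against the adipocyte score (r = -0.797 and -0.745), with adjusted permutation p of 0.0358, 0.0443, 0.0384, 0.0429 and 0.0367. Spearman's rho was 0.566, 0.629, 0.734, -0.622 and -0.727, with adjusted permutation p of 0.392, 0.332, 0.227, 0.338 and 0.235. Without HFB 6 and CTL 14 r was 0.595, 0.548, 0.568, -0.458 and -0.546. Wnt5b, Dvl2 and Fzd4 gave r of -0.302, -0.022 and 0.014 with the adipocyte score over the 9 libraries that did not stand apart, and Sfrp2 and Sfrp4 gave 0.597 and 0.565 with the fibroblast score.

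For the other lists the largest r among the Wnt genes did not pass the adjusted threshold. With the T cell score it was Sfrp4 (r = -0.777, adjusted permutation p = 0.0591), with the endothelial score Dkk2 (r = 0.746, adjusted permutation p = 0.0652), and with the skeletal muscle score Tcf7l2 (r = 0.672, adjusted permutation p = 0.100). With the luminal score it was Fzd2 (r = 0.608, adjusted permutation p = 0.158) and with the basal score Fzd1 (r = 0.505, adjusted permutation p = 0.288). Spearman's rho for these was -0.503, 0.769, 0.650, 0.559 and 0.643, with adjusted permutation p of 0.459, 0.191, 0.312, 0.398 and 0.320. Without the pair of libraries farthest from the median score, which was HFB 6 and CTL 14, HFB 5 and CTL 14, HFB 1 and CTL 10, HFB 1 and HFB 3, and HFB 1 and CTL 9 in this order, r was -0.414, 0.630, 0.575, 0.656 and 0.716. Within the diets the relation of Tcf7l2 to the muscle score was 0.903 in HFB and 0.218 in CTL, and that of Fzd2 to the luminal score was 0.797 and 0.127, differences that were not tested.

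A list of 62 further genes of the pathway, such as Ror receptors, Tle corepressors and Pygo coactivators, was read from the same fit. Counts were found for 52 of them, and 27 were tested. None had an adjusted p under 0.05 with edgeR, DESeq2 or limma-voom, and at an unadjusted p under 0.05 edgeR called 0 of 27 (2.34% of all genes), limma-voom 0 of 27 (6.53%) and DESeq2 1 of 52, Ptk7 (2.39%). The fitted difference was below 0 for 15 of the 27, with a median of -0.02. The smallest p was that of Dact3, an antagonist that acts through Dvl, at 12.7, 19.5 and 39.1 CPM in the lowest, median and highest HFB library and 15.7, 18.0 and 22.8 CPM in the CTL libraries. HFB 5 was highest and HFB 1 lowest, so the HFB libraries enclosed the CTL range. Dact3 differed by 0.32 (standard error 0.26) on the log2 scale, which became 0.10 without HFB 5 and -0.09 (standard error 0.19) without the libraries that stood apart. With the luminal score as a covariate it was 0.48, with an unadjusted p under 0.05.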

How the data were processed

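The authors deposited counts of reads per gene for 12 libraries, without normalization. The submitters' processing notes name CASAVA 1.8, bcl2fastq, TopHat, DESeq and the rn4 build. The counting program, annotation and use of strand were not given in the sources used here, so reads of overlapping or closely similar genes may have been shared. Gene IDs were matched to symbols for 16351 of 16511 genes with the RefSeq gene table of GRCr8, whose coordinates were not used. Tissue and diets follow the labels. The paper on the series describes microdissected epithelium and other groups. Adipocyte markers summed to between 16167 and 42633 CPM in a library and luminal markers to between 119 and 644 CPM. These libraries therefore held RNA of more than epithelium. Which description of the groups holds for them was not settled here. The members and lists were chosen with earlier results of these data known.

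The diets were compared in edgeR 4.0.16 under R 4.3.3 (TMM, filterByExpr, quasi-likelihood test), with p-values adjusted over all 9382 genes by the Benjamini-Hochberg method and a threshold of 0.05. Totals lay between 2320267 and 2944680 counts, and the detection limit of 3 counts covers counting error only. Correlations used log2 CPM with a prior count of 2 and 100000 resamples in Python 3.11.15, adjusted over all genes and 7 lists. Values by library are given for genes past the threshold, the 6 Wnt genes with the smallest p, the 6 with the largest SD, those with the largest r for each list, and the further pathway gene with the smallest p. Other genes are named with single values, chosen after these were seen.

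Alternatives were DESeq2 1.42.0, its size factors, upper-quartile normalization, no filter, a filter of 10 counts or more per library, limma 3.58.1 with voom and quality weights, the T cell or luminal score as a covariate, a prior count of 0.5, leaving out each library and, added after the data were seen, leaving out HFB 5, HFB 6 and CTL 14. The fits and correlations were tested on simulated data. The result of 1 marker list is not reported here.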

Additional observations from a re-analysis of the deposited data

Results flagged for a closer look

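In groups of 6 libraries, the distance between an end library and its neighbour was divided by the group's range, for total counts, the 26 tested Wnt genes (log2 CPM) and 10 marker scores. This ratio was above Dixon's critical value for 17 of 74 groups, where chance gives about 1 in 20, or 3.7, for separate groups. These groups share libraries and the Wnt genes vary together, so they are not separate. The share over all genes was not computed.

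Among the Wnt genes the library beyond the critical value was CTL 14 in each case. Wls was at 77.8 CPM there (next CTL library 153), Fzd4 at 3.87 CPM (27.2), Lrp5 at 52.8 CPM (68.3), Lrp6 at 3.52 CPM (12.3), Lgr4 at 9.16 CPM (26.5), Sfrp2 at 38.4 CPM (66.4) and Tcf7l1 at 51.8 CPM (62.1). In HFB no Wnt gene was picked out. HFB 6 and HFB 5 were the lowest HFB libraries for Wls, Fzd4, Lrp6 and Lgr4. For Lrp5, Sfrp2 and Tcf7l1, HFB 3 was below HFB 5.

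The scores of CTL 14 also lay far from the other CTL libraries, at 9.71 for adipocytes (next 11.21), 9.85 for fibroblasts (10.90), 5.69 for T cells (2.51) and 5.41 for B cells (1.49). In HFB 6 the adipocyte score was 9.77 (next 11.08) and the fibroblast score 10.07 (10.61). The basal and myoepithelial score was 3.26 in HFB 1 (next 4.31) and 3.55 in CTL 9 (4.71). Total counts were 2320267 in HFB 1 (next 2629159) and 2944680 in CTL 7 (2570080).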

How the results depend on the processing

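No gene had an adjusted p under 0.05 in the 21 alternatives to the fit reported, Wnt genes included. At an unadjusted p under 0.05 the count over all genes, 220, became 613 with limma-voom, 347 with the T cell score and 719 with the luminal score as a covariate, 509 without HFB 5, HFB 6 and CTL 14, and 135 to 587 when a library was left out, the highest without CTL 14. The count of Wnt genes, 1, became 2 without a filter, 6 with limma-voom, 3 with the luminal score (Lgr4 and Lrp5 lower, Wnt5b higher, Dkk3 no longer called), 6 without HFB 5, HFB 6 and CTL 14 and 0 to 5 when a library was left out (5 without CTL 14, 4 without HFB 4). That of the further pathway genes, 0, became 1 with DESeq2, 2 without a filter, 1 with the luminal score (Dact3), 2 without HFB 5, HFB 6 and CTL 14 and 0 to 2 when a library was left out. The other alternatives stayed within 1.5 times, and the causes were not tested.

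Of the 18 named genes, 14 kept the direction of their fold change in each setting that fitted them. Fzd4, Apc, Lrp6, Dkk2, Wnt5a and Axin2 did not pass the filter of 10 counts in each library. Wnt5a was at -0.34 with the luminal score and between -0.12 and 0.36 when a library was left out. Axin2 was at 0.0859 without HFB 5, HFB 6 and CTL 14 and between -0.51 and 0.0275 (without HFB 6) when a library was left out. Fzd2 was at 0.0941 with the luminal score and between -0.16 and 0.12 when a library was left out. Dact3 was at -0.0348 with limma-voom and -0.09 without HFB 5, HFB 6 and CTL 14. Without HFB 6 alone Fzd4 was at -0.26, Ctnnb1 at -0.10, Apc at -0.18, Lrp6 at -0.42 and Wls at -0.19. Fzd4 was at -0.88 without HFB 4, and Apc at -0.64 and Ctnnb1 at -0.53 without HFB 1. With the luminal score as a covariate Fzd4, Ctnnb1, Apc, Lrp6 and Wls were at -0.77, -0.81, -0.93, -0.96 and -0.46 and Axin2 at -0.78, and with the T cell score at -0.14, -0.22, -0.26, -0.40 and -0.20 and Axin2 at -0.15. Of the 7 correlations called, 6 were called with the size factors of DESeq2, 7 at a prior of 0.5 and 0 without the libraries farthest from the median score. Over the 9 libraries left without HFB 5, HFB 6 and CTL 14, r was computed with no test.

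No paired analysis was made because the labels give no pairs of libraries across the diets. Of the 38 Wnt genes, 12 did not pass the filter, most of them ligands and R-spondins, and were compared only in fits without it or with fewer libraries. Each diet holds 6 libraries, of which 2 in HFB and 1 in CTL stood apart.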
